A study of Rattus norvegicus with 16 samples.

Results

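A set of 7 genes that mark lipid-laden, foam-cell-like macrophages was followed in infarcted rat hearts with and without an injected gel: Gpnmb, Smpdl3a, Trem2, Lgals3, Plin2, Fabp5 and Cd9. They were taken from the gene tables by name, and 6 of the 7 have values among the 17085 genes; Fabp5 is not analysed here. All 6 passed the filter on low counts that left 11376 genes in the test. The set was chosen by measured values of these same libraries: it was drawn up around Gpnmb with the differences in counts between MI_stiff and MI, and between MI and Sham, already known. The values of the 6 genes below are therefore a description, and no p-value is given for them.

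Bulk RNA sequencing covered the infarct zone of rats in 4 groups of 4 libraries. MI_stiff and MI_soft hearts had the left anterior descending coronary artery tied and received a stiff or a soft hydrogel, a water-swollen polymer network, by injection into the muscle. MI hearts were ligated without gel, and Sham hearts went through control surgery without infarction. All 3 infarct groups share the ligation, and the Sham tissue carries the same tissue label although it holds no infarct. The sources used here do not name the strain, sex, age, time after surgery or make-up of the gels, and the 4 groups include none with gel but no ligation. The extraction label names MI/R, a usual short form for infarction with reperfusion, so whether flow was restored is not known here. Whether each library stands for its own rat is not stated, so errors and p-values cover the spread among these libraries only, some of which may be technical.

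Macrophages that clear dead cells and debris take up large amounts of membrane lipid, which their lysosomes break down and which they store as cholesteryl ester in droplets or export. In atherosclerotic plaque, fatty liver, adipose tissue and demyelinated brain such cells share a gene programme. The receptor Trem2 senses lipids and apolipoproteins and signals through the adaptor Tyrobp. Gpnmb is a membrane glycoprotein of lysosomes and the cell surface, whose gene is a target of the MiT/TFE transcription factors that respond to lysosomal load. Smpdl3a is a secreted phosphodiesterase related to acid sphingomyelinase, and its gene is a target of the cholesterol sensor LXR in human macrophages. Lgals3 (galectin-3) is a lectin that binds damaged lysosomes and cell surface sugars, Plin2 coats lipid droplets in many cell types, cardiomyocytes included, and Cd9 is a tetraspanin of the plasma membrane and of extracellular vesicles.

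The MiT/TFE factors bind a short DNA element, the M-box or CLEAR type of E-box, and 3 of the members carry its letters close upstream of the gene start. RefSeq promoters (build GRCr8, another build than the rn7 of the count tables) were found by symbol for 5 members, 6 promoters in all, since Plin2 has 2. Each was searched on both strands over the 250 bases before the start, with motifs that were chosen after the sequences had been seen. The letters TCANGTG stood in the promoters of Gpnmb, Smpdl3a and Plin2, the 3 shown here 5′ to 3′ on the strand of the gene with the match in capitals; 11.5% of 33469 rat promoters of that length hold them. They lie at chr4:79340878-79341127 (plus strand) for Gpnmb, chr20:37678754-37679003 (plus) for Smpdl3a and chr5:106229019-106229268 (minus) for the first promoter of Plin2.
Gpnmb: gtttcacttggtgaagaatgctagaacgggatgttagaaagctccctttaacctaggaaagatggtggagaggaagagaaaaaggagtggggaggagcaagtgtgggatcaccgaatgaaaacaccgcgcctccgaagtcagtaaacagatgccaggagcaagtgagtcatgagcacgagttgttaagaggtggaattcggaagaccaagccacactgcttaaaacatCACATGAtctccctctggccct
Smpdl3a: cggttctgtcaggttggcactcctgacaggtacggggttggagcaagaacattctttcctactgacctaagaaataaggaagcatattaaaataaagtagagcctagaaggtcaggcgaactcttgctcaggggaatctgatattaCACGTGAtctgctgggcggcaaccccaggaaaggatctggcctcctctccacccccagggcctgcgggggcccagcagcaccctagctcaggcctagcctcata
Plin2: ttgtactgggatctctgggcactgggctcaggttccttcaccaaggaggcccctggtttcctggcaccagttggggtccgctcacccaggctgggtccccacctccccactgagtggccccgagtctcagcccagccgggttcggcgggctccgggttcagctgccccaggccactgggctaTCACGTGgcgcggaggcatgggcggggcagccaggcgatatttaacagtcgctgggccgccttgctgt
The match in Gpnmb, CACATGA, is on the other strand and lies 15 to 22 bases before the start. In Smpdl3a it is CACGTGA, also on the other strand, 97 to 104 bases before the start, and in Plin2 it is TCACGTG, 61 to 68 bases before it. The matches of Smpdl3a and Plin2 contain the E-box core CACGTG, which 5.59% of promoters hold, so these 2 motifs overlap. Gpnmb also has an AP-1 element, TGAGTCA (from TGANTCA, in 6.34% of promoters), 80 to 87 bases before the start, and the PU.1 core GAGGAA (23.3% of promoters) 175 to 181 bases before it. The PU.1 core is also in Cd9, 218 to 224 bases before the start, and on the other strand in Trem2, 23 to 29 bases before it. The letters TCANGTG are not in these windows of Cd9, Trem2 or the second Plin2 promoter, and the direct repeat bound by PPAR, with 1 base between its parts (0.0508% of promoters), is in none of the 6. These are matches of letters in a window and were not tested for binding.

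Library totals lay between 10940685 and 14456188 counts, and a library had between 10470 and 12820 genes with a count. The 4 libraries with fewest genes detected were MI 2 (10470), MI 3 (10958), MI 4 (11283) and MI_soft 4 (11785), so 3 of the 4 MI libraries stand apart from MI 1 (12820). Leaving those 4 out, an alternative chosen after seeing the data, keeps a single MI library that is assumed to vary like the other groups. The unit of level is CPM, a count brought to one library size with TMM factors. A difference is the log2 difference fitted by edgeR's quasi-likelihood model over all 16 libraries, with its standard error (SE), and a gene is called at an adjusted p under 0.05 over all genes tested. In bulk tissue, fewer cells of a type and less RNA per cell cannot be told apart, and the cells that carry a transcript were not identified.

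**Figure D1:**
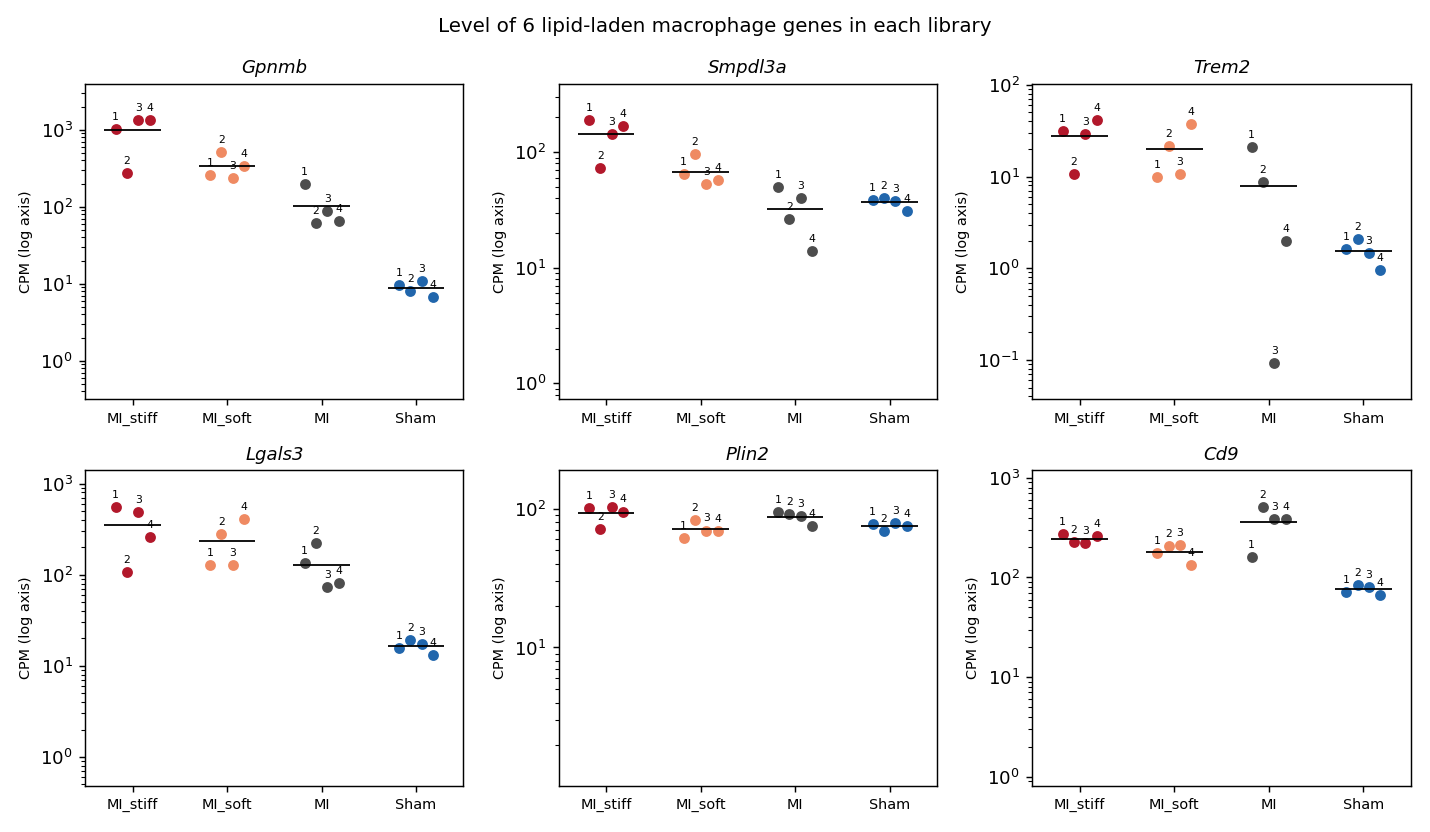
Level of each of the 6 genes in every library, in CPM on a log axis, by group; points are libraries with their replicate number and bars are group means. Gpnmb falls into steps down the groups, with 273 to 1343 CPM in MI_stiff, 234 to 514 in MI_soft, 61.5 to 198 in MI and 6.66 to 10.9 in Sham, whereas Plin2 lies between 61.3 and 103 CPM in all 16 libraries.

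Gpnmb had the widest span of group means among the 6 genes, with the gel groups at the top. It had 1017, 273, 1343 and 1337 CPM in MI_stiff 1 to 4. MI_soft 1 to 4 had 258, 514, 234 and 342 CPM, MI 1 to 4 had 198, 61.5, 87.5 and 65.5 CPM, and Sham 1 to 4 had 9.56, 8.14, 10.9 and 6.66 CPM. Every MI_stiff and every MI_soft library lay above every MI library, and every MI library lay above every Sham library. MI_stiff and MI_soft overlapped through MI_stiff 2 alone, which sat within the MI_soft range while the other 3 lay above it. The means were 993 ± 503 CPM in MI_stiff, 337 ± 127 in MI_soft, 103 ± 64.3 in MI and 8.81 ± 1.82 in Sham (SD, n = 4 each).

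The fitted log2 difference of Gpnmb was 3.27 ± 0.47 (SE) in MI_stiff against MI, which is 9.62-fold and was called. In MI_soft against MI it was 1.71 ± 0.44, and in MI_stiff against MI_soft 1.56 ± 0.44, and neither was called. Against Sham it was 6.81 ± 0.56 in MI_stiff (113-fold), 5.26 ± 0.52 in MI_soft and 3.55 ± 0.48 in MI. MI_stiff and MI_soft share the MI libraries as their comparison group, and all 3 infarct groups share the Sham libraries. Without the 4 libraries of low detection Gpnmb differed by 2.33 in MI_stiff against MI and by 0.75 in MI_soft against MI, neither of them called, and by 1.58 in MI_stiff against MI_soft. On TPM, which scales for gene length, 3 of 4 MI_soft libraries lay above all MI libraries, and MI 1 had 107 TPM.

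Smpdl3a, the phosphodiesterase, was called higher in MI_stiff than in MI and in Sham, while its differences in MI_soft were not called. It had 190, 73.6, 144 and 169 CPM in MI_stiff 1 to 4. MI_soft 1 to 4 had 64.8, 96.7, 53.2 and 57.4 CPM, MI 1 to 4 had 49.8, 26.5, 39.9 and 14.1 CPM, and Sham 1 to 4 had 38.4, 39.8, 38.1 and 31.0 CPM. All gel libraries lay above all MI and all Sham libraries, MI spanned the Sham values on both sides, and MI_stiff 2 again was the one MI_stiff library inside the MI_soft range. The log2 difference was 2.15 ± 0.34 (SE) in MI_stiff against MI (4.43-fold, called), 1.06 ± 0.33 in MI_soft against MI and 1.09 ± 0.33 in MI_stiff against MI_soft. Against Sham it was 1.97 ± 0.34 in MI_stiff (called), 0.89 ± 0.33 in MI_soft and -0.18 ± 0.33 in MI. Without the 4 low-detection libraries it was 1.54 in MI_stiff against MI and 0.51 in MI_soft against MI, neither called, and on TPM 2 of 4 MI_soft libraries lay above all MI libraries.

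Trem2, the lipid-sensing receptor, was the lowest of the 6 genes, in CPM, in every group. MI_stiff 1 to 4 had 31.2, 10.7, 28.9 and 41.4 CPM, MI_soft 1 to 4 had 9.86, 21.8, 10.6 and 37.0 CPM, MI 1 to 4 had 21.1, 8.71, 0.0938 and 2.00 CPM, and Sham 1 to 4 had 1.63, 2.08, 1.48 and 0.951 CPM. The gel libraries all lay above Sham, MI_stiff and MI_soft overlapped, and MI ran across the Sham values, with a single count in MI 3. The log2 difference against Sham was 4.19 ± 0.89 (SE) in MI_stiff, 3.69 ± 0.87 in MI_soft and 2.39 ± 0.84 in MI, all called; the last was 1.24 and not called without MI 1, and was called in 14 of 24 settings. Between the infarct groups it was 1.80 ± 0.78 in MI_stiff against MI, 1.3 ± 0.77 in MI_soft against MI and 0.50 ± 0.75 in MI_stiff against MI_soft, none called. Without the 4 low-detection libraries the first of these was 0.41 and the second -0.59.

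Lgals3, the lectin galectin-3, was higher in all 3 infarct groups than in Sham. MI_stiff 1 to 4 had 557, 106, 493 and 257 CPM, MI_soft 1 to 4 had 127, 282, 127 and 406 CPM, MI 1 to 4 had 134, 222, 73.6 and 80.5 CPM, and Sham 1 to 4 had 15.5, 19.4, 17.5 and 13 CPM. No infarct library overlapped Sham, and the 3 infarct groups overlapped each other. The log2 difference against Sham was 4.43 ± 0.54 (SE) in MI_stiff, 3.84 ± 0.52 in MI_soft and 2.96 ± 0.51 in MI, all called. In MI_stiff against MI it was 1.47 ± 0.47 with 3 of 4 MI_stiff libraries above all MI libraries, in MI_soft against MI 0.88 ± 0.47 and in MI_stiff against MI_soft 0.59 ± 0.47, none called.

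Cd9, the tetraspanin, had its highest group mean in MI, unlike the others. MI_stiff 1 to 4 had 272, 229, 221 and 263 CPM, MI_soft 1 to 4 had 175, 208, 212 and 133 CPM, MI 1 to 4 had 160, 513, 386 and 390 CPM, and Sham 1 to 4 had 72.2, 84.0, 80.8 and 66.9 CPM. MI 2, 3 and 4, the MI libraries of low detection, lay above every gel library, while MI 1 lay among the MI_soft libraries. The log2 difference against Sham was 1.70 ± 0.27 (SE) in MI_stiff, 1.26 ± 0.27 in MI_soft and 2.25 ± 0.27 in MI, all called and without overlap. It was -0.56 ± 0.26 in MI_stiff against MI and -0.99 ± 0.26 in MI_soft against MI, neither called, and without the 4 low-detection libraries these turned to 0.62 and 0.30. In MI_stiff against MI_soft it was 0.44 ± 0.26, not called, with every MI_stiff library above every MI_soft library in CPM and 3 of 4 in TPM.

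Plin2, the droplet coat protein, was nearly level across the groups. MI_stiff 1 to 4 had 101, 70.9, 103 and 95.2 CPM, MI_soft 1 to 4 had 61.3, 83.3, 69.5 and 69.0 CPM, MI 1 to 4 had 93.7, 91.5, 88.3 and 74.3 CPM, and Sham 1 to 4 had 76.8, 68.6, 78.7 and 75.4 CPM. The groups overlapped in all 6 comparisons. The largest of its log2 differences was 0.39 ± 0.17 (SE) in MI_stiff against MI_soft, where 3 of 4 MI_stiff libraries lay above all MI_soft libraries. The others were 0.09 in MI_stiff against MI, -0.30 in MI_soft against MI, 0.30 in MI_stiff against Sham, -0.08 in MI_soft against Sham and 0.22 in MI against Sham, each with an SE of 0.17 and none called.

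**Figure D2:**
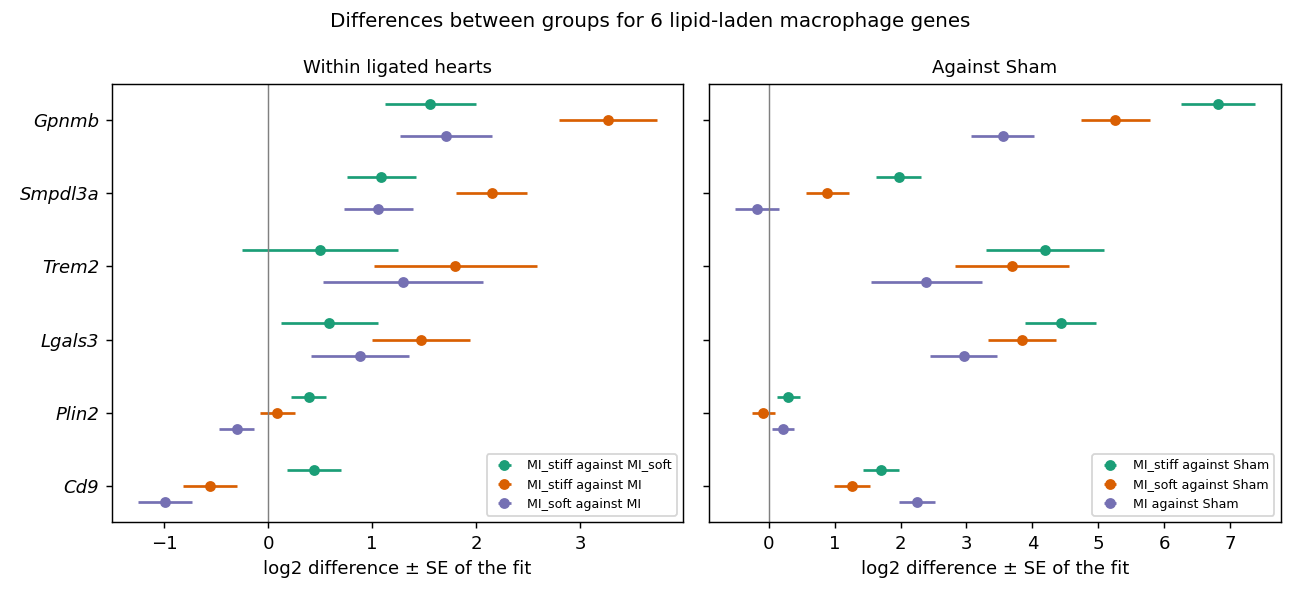
Fitted log2 difference of each of the 6 genes with its SE, within the infarct groups on the left and against Sham on the right. Gpnmb lies farthest to the right in all 6 comparisons, at 3.27 in MI_stiff against MI and 6.81 in MI_stiff against Sham, Plin2 lies between -0.30 and 0.39, and Cd9 lies below 0 in both comparisons with MI.

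Counted over the set, 2 of the 6 genes were called higher in MI_stiff against MI, where 1.19% of all genes were called (135 genes, 0.492% higher), and 2 of 6 had no overlap in the higher direction, against 3.97% of all genes. The count of 135 was 11 without MI 4 and 1253 without MI 1, and the count of 2 was 3 without MI 1, where 1 more was called lower, 1 with only the libraries of these 2 groups and 0 without the 4 low-detection libraries. In MI_soft against MI 0 of 6 were called, where 0.0264% of all genes were (3 genes by edgeR, with 1761 at an unadjusted p under 0.05), while 3 of the 6 passed 0.05 unadjusted, DESeq2 called 2 (1 of them lower), limma-voom 0, and edgeR 3 without MI 1 (1 of them lower); 2 of 6 were higher without overlap, against 2.55% of all genes. In MI_stiff against MI_soft edgeR also called 0 of 6, where 0.0967% of genes were called and 1631 had an unadjusted p under 0.05, while 3 of the 6 had an unadjusted p under 0.05, DESeq2 called 2, both higher, and limma-voom 0; 1 of 6 was higher without overlap, against 4.47% of all genes. In MI_stiff against Sham 5 of 6 were called higher, with 21.2% of all genes called (12.7% higher) and 5 of 6 without overlap, against 19.3%. In MI_soft against Sham 4 were called higher, with 26.1% called (16.4% higher) and 5 without overlap, against 20.9%. In MI against Sham 4 were called higher, with 36.6% called (20.2% higher) and 3 without overlap, against 17.7%. The median log2 difference of the 6 was 1.63 in MI_stiff against MI, 0.97 in MI_soft against MI, 0.54 in MI_stiff against MI_soft, and 3.08, 2.47 and 2.32 in MI_stiff, MI_soft and MI against Sham. Over all genes tested the medians lay between 0.01 and 0.06. Since the genes were chosen with these comparisons known, nothing is read from these counts.

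On TPM, which is scaled for gene length, the order of the 6 genes differed between infarct and Sham. In MI_stiff Lgals3 had 479 ± 263 TPM and Gpnmb 477 ± 294 TPM (SD, n = 4), ranks 178 and 180 of 17085 genes by mean TPM, ahead of Cd9 with 262 ± 59.6, Smpdl3a with 98.0 ± 40.8, Plin2 with 55.5 ± 15.4 and Trem2 with 30.7 ± 18.2 TPM. The first 2 did not differ beyond their spread. In MI_soft Gpnmb had 133 ± 48.2 TPM and rank 527, and in MI 45.3 ± 41.8 TPM and rank 1337. In Sham Cd9 led with 65.4 ± 6.48 TPM, Plin2 followed with 36.3 ± 6.23, Smpdl3a had 19.9 ± 2.60 and Lgals3 18.1 ± 2.22, while Gpnmb had 3.27 ± 0.865 TPM (rank 7291) and Trem2 1.28 ± 0.295 TPM. Smpdl3a and Lgals3, neighbours in that order, overlapped in Sham, while the lowest Smpdl3a library (17.6 TPM) lay far above the highest Trem2 library (1.52 TPM).

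Macrophage markers themselves moved with the groups, so each gene was also set against the mean log2 CPM of 18 macrophage markers in the same library. None of the 18 was at 0 in any group, and their summed level was 381 to 1073 TPM in MI_stiff, 743 to 1830 in MI_soft, 262 to 1450 in MI and 90.9 to 129 in Sham. Of the 18, 17 were called higher in MI_stiff, 15 in MI_soft and 13 in MI, each against Sham, with median log2 differences of 2.43, 3.02 and 1.93. Between the infarct groups edgeR called 0 of 18 in any of the 3 comparisons, with medians of 0.40 in MI_stiff against MI, 1.09 in MI_soft against MI and -0.53 in MI_stiff against MI_soft. In the same order 6, 12 and 4 had an unadjusted p under 0.05, DESeq2 called 4, 2 and 0, and limma-voom 0 in each. Without the 4 low-detection libraries edgeR called 2 of the 18 in MI_stiff against MI, both lower. The 2 gel groups overlapped in the marker mean, and MI 1 had a marker mean of 5.42 log2 CPM, against 3.57 to 3.88 in MI 2, 3 and 4. MI_stiff 2, the MI_stiff library lowest in Gpnmb, Smpdl3a, Trem2, Lgals3 and Plin2, was also the lowest MI_stiff library in this mean, at 4.39.

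**Figure D3:**
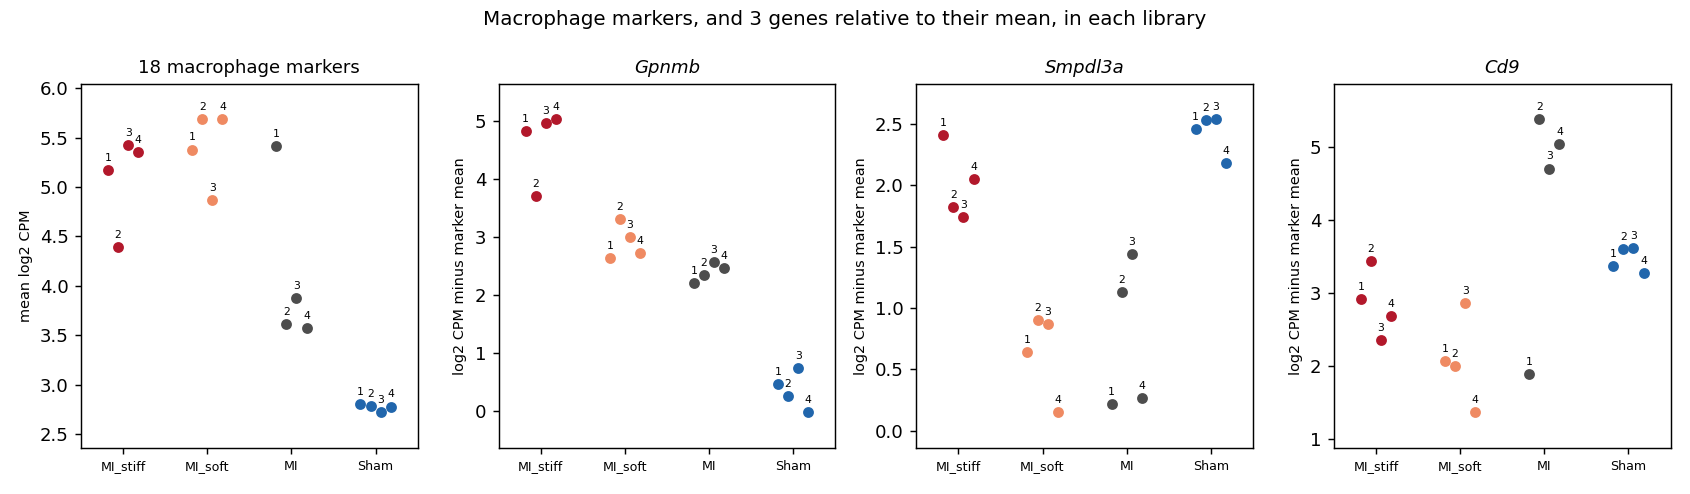
Mean log2 CPM of 18 macrophage markers in each library, and Gpnmb, Smpdl3a and Cd9 as log2 CPM minus that mean; points are libraries with their replicate number. Relative to the markers Gpnmb still separates the groups, with 3.70 to 5.03 in MI_stiff, 2.64 to 3.31 in MI_soft, 2.21 to 2.57 in MI and -0.02 to 0.75 in Sham, while Smpdl3a lies at 1.74 to 2.41 in MI_stiff and 2.18 to 2.54 in Sham.

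Relative to these markers Gpnmb kept its order. It lay 3.70 to 5.03 log2 units above the marker mean in MI_stiff, 2.64 to 3.31 above it in MI_soft, 2.21 to 2.57 above it in MI and -0.02 to 0.75 in Sham, and no 2 groups overlapped. MI_stiff 2, which sat inside the MI_soft range in CPM, was above all MI_soft libraries on this scale. Smpdl3a lay at 1.74 to 2.41 in MI_stiff, 0.15 to 0.90 in MI_soft, 0.22 to 1.44 in MI and 2.18 to 2.54 in Sham, so MI_stiff and Sham overlapped at the top and MI_soft and MI at the bottom. Trem2 lay at -0.95 to 0.02 in MI_stiff, -2.05 to -0.48 in MI_soft, -5.89 to -0.46 in MI and -2.64 to -1.63 in Sham. Lgals3 lay at 2.35 to 3.95 in MI_stiff, 1.61 to 2.97 in MI_soft, 1.64 to 4.19 in MI and 0.93 to 1.5 in Sham, so it was above Sham in every infarct library. Plin2 lay at 1.22 to 1.76 in MI_stiff, 0.42 to 1.26 in MI_soft, 1.13 to 2.91 in MI and 3.32 to 3.59 in Sham, and Cd9 at 2.36 to 3.45, 1.37 to 2.87, 1.90 to 5.39 and 3.28 to 3.62 in the same order of groups. For Plin2, Sham was the highest group and overlapped none of the others, so its level in the tissue did not rise in step with macrophage markers. Smpdl3a in Sham likewise lay above all MI_soft and MI libraries. The name of the set is thus not borne out by Plin2 in whole tissue. Cd9 and Smpdl3a did not follow the markers throughout either. In MI_soft against MI Cd9 differed by -0.99 (0.30 without the 4 low-detection libraries), where the marker median was 1.09. In MI against Sham Smpdl3a differed by -0.18, where the marker median was 1.93. Cardiomyocytes also make Plin2, and its level within macrophages was not measured. These values are a description, since a mean of markers is not a count of cells.

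Macrophage elastase headed the genes whose pattern was most like that of Gpnmb. By Pearson's r of log2 CPM over the 16 libraries, which share groups, depth and library preparation, the 10 highest included Mmp12 (macrophage elastase, 0.983), Matk (a kinase of blood cells, 0.978), Il1rn (the interleukin-1 receptor antagonist, 0.975), Tnn (tenascin-N, 0.975), Ctss (cathepsin S, 0.966), Hk3 (a hexokinase of myeloid cells, 0.964), Lilrb4 (0.959), Cd53 (a leukocyte tetraspanin, 0.957) and Cd44 (a hyaluronan receptor, 0.955). After the group means were subtracted the 10 highest were Il1rn (0.931), Lgmn (0.929), Ocstamp (0.906), Lcp1 (0.902), Stap1 (0.900), RGD1305807 (0.899), Gid8 (0.890), Myo1f (0.889), Cd300lf (0.880) and Mmp12 (0.878), and only Il1rn and Mmp12 stood in both lists of 10. Among 11375 genes Lgals3 ranked at 23 by r over all libraries (0.934), Trem2 at 318, Smpdl3a at 423 (0.761), Cd9 at 1301 and Plin2 at 2472. After subtraction of group means Smpdl3a ranked at 41 (0.807) and Plin2 at 48 (0.794), whereas Cd9 had an r of -0.387. These r values are a description of these libraries and carry no test.

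Mmp12, which cuts elastin, had 665, 146, 785 and 646 CPM in MI_stiff 1 to 4, against 71.1, 265, 67.1 and 65.7 CPM in MI_soft, 19.8, 1.59, 4.03 and 1 CPM in MI and no count in any Sham library. It was at least 2270-fold higher in MI_stiff than in Sham, at least 475-fold in MI_soft and at least 26.8-fold in MI, against a floor of 3 counts per library (0.247 CPM in Sham). Its log2 difference in MI_stiff against MI was 6.37 ± 0.94 (SE), and 4.83 without the 4 low-detection libraries, where it was not called. Il1rn had 142, 10.8, 114 and 122 CPM in MI_stiff 1 to 4, against 15.2, 36.2, 13.8 and 20.6 CPM in MI_soft, 12, 2.51, 9.29 and 4.28 CPM in MI and 0.792 to 1.16 CPM in Sham. Its log2 difference in MI_stiff against MI was 3.79 ± 0.62, and 3.03 without the 4 low-detection libraries, where it was not called. Since both genes are named for their likeness to Gpnmb over these libraries, these differences are a description, with no p-value. MI_stiff 2 had the lowest Mmp12 and Il1rn of its group, as it had the lowest Gpnmb.

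**Figure D4:**
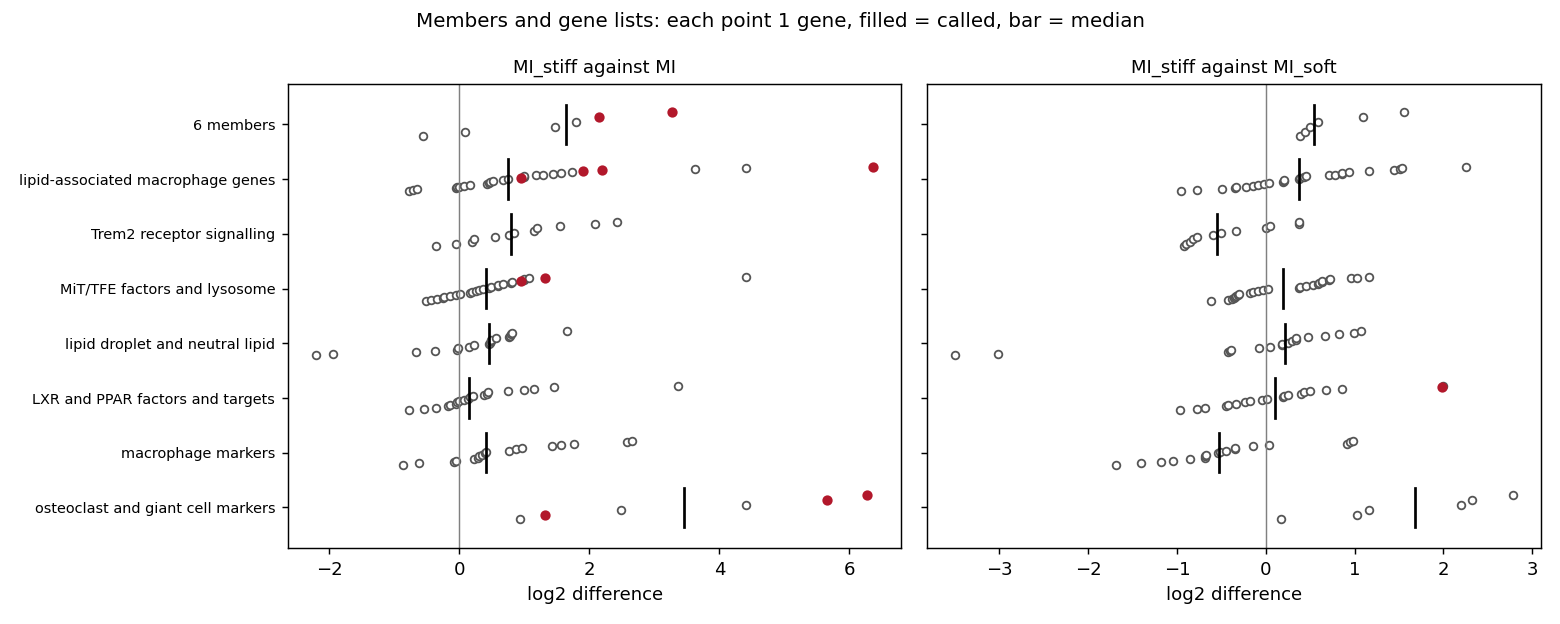
Log2 differences of the 6 genes and of the tested genes of 7 lists in MI_stiff against MI (left) and MI_stiff against MI_soft (right); each point is a gene, filled where edgeR called it, and the bar is the median of the list. In MI_stiff against MI 4 lipid-associated macrophage genes, 2 lysosome genes and 3 osteoclast and giant cell markers were called, all higher, and no macrophage marker was.

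The lists that follow share some genes, Lipa, Ctsk, Apoe, Trem1 and Plin1 among them, which count under each list that holds them. Over all genes tested 21.2% were called in MI_stiff against Sham (12.7% higher), 26.1% in MI_soft (16.4% higher) and 36.6% in MI (20.2% higher). Between the infarct groups they were 1.19% in MI_stiff against MI, 0.0264% in MI_soft against MI and 0.0967% in MI_stiff against MI_soft. The lists were chosen with earlier results of these data known, so their counts beside these shares are a description. Other genes of the lipid-associated macrophage programme, 27 of whose 32 listed genes were tested, also lay higher in the infarct groups. Against Sham 16 were called higher and 0 lower in MI_stiff, 14 higher and 1 lower in MI_soft, and 16 higher and 3 lower in MI, with median log2 differences of 1.64, 1.06 and 1.08. Lipa was 1 of the 3 lower in MI (-0.63 ± 0.22, SE, edgeR adjusted p = 0.0326). Its adjusted p there was 0.0537 to 0.0984 without MI 2, MI 4, Sham 2, Sham 3 or Sham 4. In MI_stiff against MI 4 rose and 0 fell (median 0.74): Mmp12, Spp1, Hmox1 and Lipa. Spp1, the matrix protein osteopontin, averaged 349 ± 212 CPM in MI_stiff and 75.7 ± 34.3 CPM in MI (SD, n = 4 each) and rose by 2.20 ± 0.51 (SE, adjusted p = 0.0423). Hmox1, which breaks down heme, had 128, 83.6, 94.0 and 84.2 CPM in MI_stiff, against 35.0, 30.1, 14.4 and 25.0 CPM in MI, without overlap, and rose by 1.90 ± 0.28 (adjusted p = 0.00676). Lipa, the lysosomal acid lipase that frees cholesterol, averaged 157 ± 39.9 CPM in MI_stiff and 82.1 ± 19.4 CPM in MI and rose by 0.94 ± 0.22 (adjusted p = 0.0441). Hmox1 was called in all 23 alternative settings; without any one of MI 2, MI 4, MI_soft 1, 2 or 3, MI_stiff 1, 3 or 4 or a Sham library the other 2 lost their call, Spp1 also without MI 3, with adjusted p-values of 0.0524 to 0.147 for Spp1 and 0.0536 to 0.13 for Lipa. Of the 27 the count called in MI_stiff against MI was 2 without any one of MI 2, MI 4, MI_soft 1, 2 or 3, MI_stiff 1, 3 or 4 or a Sham library, also 2 without the 4 low-detection libraries, 6 without MI_stiff 2, 9 without MI_soft 4 and 12 without MI 1. In MI_soft against MI and in MI_stiff against MI_soft edgeR called 0 of the 27 (medians 0.49 and 0.37), where 10 and 6 had an unadjusted p under 0.05, DESeq2 called 5 and 3 and limma-voom 0 and 1. Without MI 1 edgeR called 11 in MI_soft against MI.

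Of 12 tested genes of Trem2 signalling, all of those called were higher than in Sham: 8 in MI_stiff, 10 in MI_soft and 7 in MI, with medians of 2.00, 2.65 and 1.40. In the same order DESeq2 called 9, 10 and 7 and limma-voom 7, 10 and 3. Tyrobp, the adaptor through which Trem2 signals, had 104, 19.2, 71.1 and 65.5 CPM in MI_stiff 1 to 4, against 56.3, 84.4, 52.6 and 196 CPM in MI_soft, 55.1, 31.2, 10.2 and 15.9 CPM in MI and 6.97 to 9.33 CPM in Sham. It rose against Sham by 2.93 ± 0.56 in MI_stiff (SE, edgeR adjusted p = 0.0011), 3.52 ± 0.57 in MI_soft (0.000242) and 1.73 ± 0.54 in MI (0.0183), the last with an adjusted p of 0.0887 without MI 1, 0.0508 without Sham 4 and 0.091 with limma-voom. Dok3, an adaptor of immune receptors, rose by 3.36 ± 0.50 in MI_stiff, 3.36 ± 0.50 in MI_soft and 1.82 ± 0.49 in MI (adjusted p = 0.000155, 0.000121 and 0.00784), the last with 0.105 with limma-voom. Syk, the kinase downstream of Tyrobp, rose by 2.25 ± 0.32, 2.58 ± 0.33 and 1.11 ± 0.32 in the same order (adjusted p = 0.000105, 2.45e-05 and 0.0112), the last with 0.0689 without MI 1. Trem1, the inflammatory relative of Trem2, averaged 5.45 ± 3.57 CPM in MI_stiff, 4.22 ± 2.06 in MI_soft, 1 ± 0.76 in MI and 0.102 ± 0.0366 in Sham (SD, n = 4). Between the infarct groups edgeR called 0 of these 12, with medians of 0.80 in MI_stiff against MI, 1.27 in MI_soft against MI and -0.54 in MI_stiff against MI_soft. In the same order 6, 8 and 2 had an unadjusted p under 0.05, DESeq2 called 3, 3 and 1, and limma-voom 0 in each.

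The MiT/TFE factors and lysosomal genes went partly apart from Gpnmb. Of 26 tested, 12 were called higher and 1 lower in MI_stiff against Sham, 11 and 1 in MI_soft and 12 and 2 in MI, with medians of 0.51, 0.46 and 0.49. Gusb, a lysosomal glucuronidase, rose against Sham by 2.37 ± 0.27 in MI_stiff, 1.65 ± 0.27 in MI_soft and 1.56 ± 0.27 in MI (SE, edgeR adjusted p = 1.44e-05, 0.000245 and 0.000274). Mitf, the factor for which the MiT/TFE family is named, fell. It had 0.536 to 3.83 CPM in MI_stiff, 0 to 2.38 in MI_soft and 0.364 to 1.78 in MI, against 8.77 to 14.7 CPM in Sham, without overlap. Its log2 difference against Sham was -2.44 ± 0.73 in MI_stiff (adjusted p = 0.0239), -2.96 ± 0.75 in MI_soft (0.00767) and -3.43 ± 0.77 in MI (0.00249), the first with 0.0573 to 0.0667 without MI_stiff 1, 2 or 3, Sham 1 or Sham 4. In MI_stiff against MI 2 of the 26 rose (median 0.41), Lipa, which was called lower in MI than in Sham, and the collagen-cutting Ctsk (cathepsin K). Ctsk had 342, 123, 181 and 338 CPM in MI_stiff, against 97.4, 100, 85.0 and 113 CPM in MI, and rose by 1.32 ± 0.28 (adjusted p = 0.0366), with 0.0505 to 0.099 without MI 2, MI 4, MI_stiff 1, 3 or 4, or Sham 2. In MI_soft against MI and in MI_stiff against MI_soft edgeR called 0 of 26, with medians of 0.15 and 0.19, where 6 and 7 had an unadjusted p under 0.05, DESeq2 called 1 in each and limma-voom 0. Without the 4 low-detection libraries 0 of 26 were called in MI_stiff against MI.

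Genes of lipid droplets and neutral lipid were called by edgeR in both directions against Sham in MI_soft and MI, and lower alone in MI_stiff. Of 18 tested, 0 were called higher and 2 lower in MI_stiff, 2 and 4 in MI_soft and 2 and 8 in MI, with medians of -0.36, -0.40 and -0.48. In the same order 21.2%, 26.1% and 36.6% of all genes were called. In MI_stiff DESeq2 called 6 and limma-voom 4. Fitm2, which helps form droplets, fell against Sham by 1.19 ± 0.25 in MI_stiff, by 1.53 ± 0.25 in MI_soft and by 1.98 ± 0.26 in MI on the log2 scale (SE, edgeR adjusted p = 0.00255, 0.000304 and 2.17e-05). Nceh1, which hydrolyses cholesteryl ester, fell by 1.59 ± 0.46, by 2.07 ± 0.47 and by 2.40 ± 0.48 in the same order (adjusted p = 0.0205, 0.00374 and 0.000977), the first with 0.0506 to 0.0665 without MI_stiff 1, 3 or 4. The 2 genes called higher in MI_soft and in MI were Cidec and Plin1, which coat fat-cell droplets. Both were at 0 in every Sham library. Set against the floor of 3 counts per library, the group mean of Cidec was at least 26.2-fold higher in MI_soft and 10.7-fold in MI. That of Plin1 was at least 17.5-fold and 8.08-fold higher. The spread was wide, with Plin1 at 4.31 ± 5.42 CPM in MI_soft and 1.99 ± 3.3 CPM in MI (SD, n = 4 each). None of the 18 genes was higher in MI than in Sham without overlap, and DESeq2 called 1 of them higher in MI. The summed level of 8 adipocyte markers, these 2 included, was 417 to 871 TPM in MI_stiff, 485 to 756 in MI_soft, 830 to 1046 in MI and 275 to 533 in Sham, so it was highest in MI, whereas Cidec averaged 6.48 ± 7.28 CPM in MI_soft and 2.63 ± 3.48 CPM in MI (SD, n = 4 each). That sum also holds Fabp4, which is made by capillaries and macrophages too and had its highest group mean in MI. By gene, the median log2 difference of the 8 against Sham was 3.85 in MI_soft and 2.48 in MI, with the same floor. The part of fat cells in the result was not tested. Without the 4 low-detection libraries the counts were 2 higher and 8 lower in MI_stiff, 2 and 8 in MI_soft and 0 and 6 in MI. Between the infarct groups edgeR called 0 of the 18, with medians of 0.46, 0.32 and 0.22 in MI_stiff against MI, MI_soft against MI and MI_stiff against MI_soft, where 3 in each had an unadjusted p under 0.05, DESeq2 called 1, 0 and 1 and limma-voom 0.

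Among 20 tested factors and targets of the lipid-sensing receptors LXR and PPAR, 6 were called higher and 2 lower in MI_stiff against Sham, 6 and 2 in MI_soft and 7 and 5 in MI, with medians of 0.48, 0.30 and 0.42. Scd, which makes monounsaturated fatty acids, averaged 12.7 ± 11.2 CPM in MI_stiff, 24.8 ± 31.8 in MI_soft and 11.6 ± 9.70 in MI, against 0.29 ± 0.113 CPM in Sham (SD, n = 4 each), and was called higher in all 3 by edgeR (adjusted p = 0.00441, 0.00131 and 0.00308). With limma-voom it was called in none of them (adjusted p = 0.207, 0.169 and 0.168), and in MI it also lost its edgeR call without the 4 low-detection libraries. Ppara, the fatty acid receptor of heart muscle, fell by 1.54 ± 0.44 in MI_stiff, by 2.04 ± 0.45 in MI_soft and by 2.99 ± 0.47 in MI on the log2 scale (adjusted p = 0.0179, 0.00279 and 0.000121), the first with 0.0502 to 0.0761 without MI_stiff 1, Sham 1 or Sham 4. Angptl4, a PPAR target that inhibits lipoprotein lipase, was the one gene of the 20 called in MI_stiff against MI_soft (median 0.10). It had 59.2, 48.3, 40.7 and 49.0 CPM in MI_stiff 1 to 4, against 7.02, 7.45, 12.9 and 22.6 CPM in MI_soft, without overlap, and 15.7 to 27.6 CPM in MI. It rose in MI_stiff against MI_soft by 1.98 ± 0.36 (adjusted p = 0.0365), with 0.0524 to 0.114 without MI 4, MI_soft 1, 2 or 3, any MI_stiff library, Sham 3 or Sham 4. The cardiomyocyte markers of the tissue summed to 21225 to 34035 TPM in MI_stiff, 27076 to 43360 in MI_soft, 21245 to 34701 in MI and 34989 to 53022 in Sham, and their part in these results was not tested. In MI_stiff against MI and in MI_soft against MI edgeR called 0 of the 20, with medians of 0.15 and 0.21, where 4 and 5 had an unadjusted p under 0.05, DESeq2 called 3 and 0 and limma-voom 0. Without the 4 low-detection libraries 9 were called higher and 4 lower in MI_stiff against Sham, 6 and 4 in MI_soft and 7 and 3 in MI.

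The families of the 6 genes differed among themselves. Of 20 tested relatives, 9 were called higher and 2 lower in MI_stiff against Sham, 12 and 1 in MI_soft and 14 and 1 in MI, with medians of 0.87, 1.20 and 1.17. Smpdl3b, the membrane-bound relative of Smpdl3a, averaged 7.04 ± 1.42 CPM in MI_stiff, 12.7 ± 1.66 in MI_soft and 13.7 ± 4.53 in MI, against 1.78 ± 0.345 CPM in Sham (SD, n = 4 each). It rose against Sham by 1.98 ± 0.31, 2.83 ± 0.31 and 2.95 ± 0.31 in that order (SE, edgeR adjusted p = 0.000212, 6.89e-06 and 3.06e-06), and its difference in MI_stiff against MI was -0.96 ± 0.29 (adjusted p = 0.0998), whereas that of Smpdl3a was 2.15. Lgals1, galectin-1, averaged 207 ± 70.1, 224 ± 101 and 374 ± 98.5 CPM in MI_stiff, MI_soft and MI, against 87.6 ± 15.3 CPM in Sham, and rose against Sham in all 3 (adjusted p = 0.00793, 0.0037 and 8.57e-05). Tspan4, a tetraspanin like Cd9, rose by 2.34 ± 0.27, 3.16 ± 0.28 and 2.98 ± 0.28 in the same order (adjusted p = 1.63e-05, 7.78e-07 and 1.09e-06). Fabp3, the fatty acid-binding protein of heart muscle, averaged 581 ± 160, 812 ± 183 and 659 ± 274 CPM in MI_stiff, MI_soft and MI, against 1720 ± 350 CPM in Sham, and fell in all 3 (adjusted p = 0.000852, 0.0095 and 0.0013). Fabp4, of fat cells, capillaries and macrophages, averaged 218 ± 59.3 CPM in MI_stiff, 191 ± 47.1 in MI_soft, 374 ± 160 in MI and 186 ± 31.3 in Sham. It was called higher in MI against Sham alone (1.01 ± 0.31, adjusted p = 0.0164), with 0.0713 without MI 4 and a difference of -0.16 without the 4 low-detection libraries. In MI_stiff against MI Cd53 alone was called of the 20 (1.71 ± 0.39). It lost its call without any one of MI 2, 3 or 4, MI_soft 1, 2 or 3, MI_stiff 1, 3 or 4 or the Sham libraries. It was also not called without the 4 low-detection libraries or with limma-voom. Cd53 is named above for its likeness to Gpnmb over these libraries, so its difference is a description, with no p-value. EdgeR called 0 of 20 in MI_soft against MI and in MI_stiff against MI_soft. There 7 and 9 had an unadjusted p under 0.05, DESeq2 called 2 in each and limma-voom 0.

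Of 6 tested markers of multinucleated macrophages and osteoclasts, 3 were called higher in MI_stiff against MI, where 1.19% of all genes were called. The list was chosen with earlier results of these data known, so this count is a description and nothing is read from it. Ocstamp is also among the 10 genes most like Gpnmb after subtraction of group means, so its difference is a description too. The adjusted p-values of Ocstamp below are likewise not read as a test. Their summed level over 7 genes was 94.5 to 388 TPM in MI_stiff, 77.9 to 120 in MI_soft, 56.4 to 107 in MI and 8.81 to 13.2 in Sham, where Dcstamp, Ocstamp, Atp6v0d2 and Calcr were at 0. MI_stiff and MI overlapped in this sum. The 3 called, of which 0 were called without the 4 low-detection libraries, were Ctsk and the fusion proteins Dcstamp (6.4 ± 3.74 CPM in MI_stiff and 0.0615 ± 0.123 CPM in MI, SD, n = 4 each; adjusted p = 0.0142) and Ocstamp (12.9 ± 9.37 and 0.215 ± 0.43 CPM in the same order; adjusted p = 0.0432). Both had counts in MI 1 alone of the MI libraries, so no fold is given. Dcstamp had an adjusted p of 0.054 without MI 4, and Ocstamp 0.0524 to 0.133 without any one of MI 2, 3 or 4, MI_soft 1, 2 or 3, MI_stiff 1, 3 or 4 or the Sham libraries. Epithelial and mesothelial markers summed to 18 to 89.7 TPM in MI_stiff, 7.26 to 23.2 in MI_soft, 8.04 to 27.7 in MI and 5.44 to 7.50 in Sham. Lymphocyte markers ran otherwise, with 13.2 to 48.6 TPM in MI_stiff, 71.1 to 333 in MI_soft, 7.14 to 123 in MI and 14.6 to 21.8 in Sham. Melanocyte and Schwann cell markers summed to 8.32 to 15.9 TPM in MI_stiff, 14.6 to 25.4 in MI_soft, 8.08 to 30.8 in MI and 3.11 to 8.16 in Sham. Of 4 of them tested, 1 was called higher against Sham in each infarct group. The pigment-cell gene Tyr was at 0 in every library, Tyrp1 in every group but MI_soft, and Mlana in Sham alone. Gpnmb, which melanocytes also express, was at up to 765 TPM. The part of these cell types in the values of the 6 genes was not tested.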

How the data were processed

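RNA from the infarct zone was sequenced in 16 libraries, 4 in each of 4 groups taken from the sample titles. The authors deposited expected counts per gene, estimated from reads aligned to rn7, with STAR 2.7.3a and RSEM 1.3.1 named in the submitters' processing notes. The authors also deposited TPM values from the same libraries, which are scaled for gene length and library size. The annotation and strand setting are not named in these notes. Expected counts were rounded to whole numbers (0.785% of values were not whole). Genes with low counts were dropped with edgeR's filterByExpr, libraries were scaled with TMM, and 1 quasi-likelihood model (edgeR 4.0.16, R 4.3.3) over the 4 groups gave all 6 comparisons, with Benjamini-Hochberg adjustment over all 11376 genes tested. All adjusted p-values are from this model unless another tool is named. Library totals lay between 10940685 and 14456188 counts. Log2 CPM uses a prior count of 2. Among replicates of a group the smallest chi-square per degree of freedom between 2 libraries was 10.2, so none was counted as a repeat of another. Of the genes tested, 483 have counts identical to another gene's in every library, which can come from reads shared between copies or from 1 gene listed under several names; none of the 6 genes described is among them. Alternatives were DESeq2 1.42.0, limma-voom (limma 3.58.1), DESeq2 size factors, no filter, the replicate number as a block, only the 2 groups compared, each library left out, and, chosen after seeing the data, the 4 libraries with fewest genes detected left out. The fit was tested on simulated data.

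The genes and the 18 gene lists were chosen with earlier results of these data known. Named were all members, for each list and comparison at most 4 called genes with the largest absolute log2 difference, relatives in the members' families, and the 10 genes with the highest Pearson's r to Gpnmb over the 16 libraries and the 10 after subtracting group means, of which 1 gene is not reported here. Syk and Tyr were named after their values were seen.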

Additional observations from a re-analysis of the deposited data

Results flagged for a closer look

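In 9 of the 180 groups of 4 libraries checked, 1 library lay so far from the other 3 that its gap, divided by the range of the group, exceeded Dixon's 95% critical value. Chance alone passes about 1 in 20 groups, so about this number would pass by chance. Of the 6 genes, Gpnmb stood out in MI on TPM, with 107 TPM in MI 1, and Plin2 in Sham on TPM, with 27.1 TPM in Sham 2, the lowest. Mmp12 was high in MI_soft 2 (265 CPM) and, within MI, in MI 1 (19.8 CPM). The fusion genes were counted in MI 1 alone among the MI libraries, Dcstamp at 0.246 CPM and Ocstamp at 0.861 CPM. Apoe was at 3507 CPM in MI_soft 4, Fabp3 at 2245 CPM in Sham 3 and Fitm2 at 141 CPM in MI_stiff 4. Of these 9 values, 4 belong to MI 1, whose macrophage marker mean (5.42 log2 CPM) was also above that of MI 2, 3 and 4.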

How the results depend on the processing

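Under the 23 alternatives and on TPM with pseudocounts of 1 and 0.1, 886 fitted differences of the 6 genes moved by less than the SD between replicates, 14 moved by more, and 0 called ones changed sign. That SD was wide for some genes, 2.8 log2 units for Trem2 in MI, so a difference could shift far without counting as moved. Trem2 in MI_soft against MI ran from -0.59 to 2.56 with 0 moves counted. The tally is therefore no measure of stability. Gpnmb was called in 23 of 24 settings when MI_stiff was set against MI, and Smpdl3a in 22 of 24. Both were chosen with this comparison known, and the settings share most libraries, so nothing is read from these 2 counts. The counts of calls depended on the setting, and the cause was not tested. Without the 4 libraries with fewest genes detected, 4455 genes were called in MI_soft against Sham, 4986 in MI_stiff against Sham, 11 in MI_soft against MI, 215 in MI_stiff against MI (0 of the 6 genes and 2 of the other lipid-associated macrophage genes) and 243 in MI_stiff against MI_soft (3 of those other genes), and the difference of Fabp4 in MI against Sham turned to -0.16. With only the 2 groups, 4523 genes were called in MI_stiff against Sham, 0 in MI_soft against MI and 13 in MI_stiff against MI, among them 1 of the 6 genes and 2 of the other lipid-associated macrophage genes. Without the filter on low counts 82 were called in MI_stiff against MI, 2 of them other lipid-associated macrophage genes. With limma-voom 7 were called in MI_soft against MI, 86 in MI_stiff against MI and 17 in MI_stiff against MI_soft (1 other lipid-associated macrophage gene). DESeq2 called 293, 583 and 278 in these 3 comparisons, with 2 of the 6 genes in the first and 2 in the last, and 5, 11 and 3 other lipid-associated macrophage genes.

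With the replicate number as a replicate block, 0 genes were called in MI_soft against MI, 34 in MI_stiff against MI (2 other lipid-associated macrophage genes) and 3 in MI_stiff against MI_soft. The 24 correlations of deviations between libraries of the same number ran from -0.285 to 0.176, with 5 over 0.1. Such correlations cannot show whether the numbers pair the samples, which the labels do not say.

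With 1 library left out at a time, the genes called ranged between 3310 and 5053 in MI against Sham, 2155 and 3375 in MI_soft against Sham, 1690 and 3220 in MI_stiff against Sham, 0 and 1508 in MI_soft against MI, 11 and 1253 in MI_stiff against MI, and 4 and 57 in MI_stiff against MI_soft. Of the 6 genes, 3 to 4, 4 to 5, 5, 0 to 3, 2 to 4 and 0 were called in the same order of comparisons. Of the other lipid-associated macrophage genes, 17 to 20, 15 to 17, 15 to 19, 0 to 11, 2 to 12 and 0 to 1 were called. Trem2 had 1 count in MI 3, so its level there carries a wide counting error.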
